A study of Homo sapiens with 6 samples.

Results

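The mRNAs of the nuclear-encoded subunits of the respiratory chain and ATP synthase were compared between CAL-27 cells depleted of XBP-1s and control cells. CAL-27 is an established line from a human squamous cell carcinoma of the tongue. XBP-1s is the transcription factor made from the spliced XBP1 message when IRE1 signals stress in the endoplasmic reticulum. The cells had been stably transduced with a hairpin RNA directed at XBP-1s (named shXBP-1s, 3 samples) or with a control hairpin (shCtrl, 3 samples), and no treatment beyond the shRNA is given in the labels. Total RNA of each sample was hybridised with Cy3 to 1 array of a 1-colour Agilent whole human genome design. The labels do not state whether the 3 samples of a group were separate cultures, so the p-values measure the spread between these samples, which may be technical. The number of shRNA sequences or clones behind the shXBP-1s cells is not given in the labels.

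A gene was a member when a probe's RefSeq accession gave a symbol of an NDUFA, NDUFB, NDUFC, NDUFS or NDUFV subunit, of SDHA to SDHD, of a UQCR subunit or CYC1, of a COX4 to COX8 subunit, or of an ATP5 subunit. Assembly factors and pseudogenes were left out. Of 19740 genes with a probe, 88 were members, measured by 108 of the 34127 probes. By complex, the rule found 37 genes of complex I, 4 of complex II, 10 of complex III, 19 of complex IV and 19 of complex V. NDUFA4 and NDUFA4L2, now named COXFA4 and COXFA4L2, were counted with complex IV, where the NDUFA4 protein resides. UQCRHL had no probe. COX7B2, COX8C and COXFA4L2 were not well above background on any of the 6 arrays and were not tested. The remaining 85 genes were well above background on all 6 arrays.

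The respiratory chain passes electrons from NADH, through complex I, or from succinate, through complex II, to coenzyme Q, and then through complex III and cytochrome c to oxygen at complex IV. Complexes I, III and IV pump protons out of the mitochondrial matrix, and complex V, the ATP synthase, uses their return to make ATP. All subunits of complex II are encoded in the nucleus. The other complexes combine nuclear-encoded subunits with subunits made from mitochondrial DNA. The catalytic centre of complex IV is made from mitochondrial DNA, so its nuclear-encoded subunits are accessory ones, several of which exist as isoforms restricted to certain tissues.

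Promoters of these genes are known for sites of NRF1, of ETS factors such as GABP, and of YY1. RefSeq promoter sequences, 250 bases before to 50 bases after the start of the gene in GRCh38.p14, were at hand for 72 of the 89 genes found by the rule. The NRF1 motif GCGCANGCG was present on either strand in 31.9% of the 72 promoters and in 8.0% of all 27305 promoters of the table. The ETS motif CCGGAAG was present in 27.8% against 10.7%, and the YY1 motif AAGATGGCG in 11.1% against 1.8%. The motif TGACGTG, the core of the element named UPRE that XBP-1s is known to bind, was present in 3 of the 72 promoters (4.2%) and in 2.0% of all promoters. A match is a string of letters and not a measured binding site, and motifs may overlap. Among the 36 members with a promoter sequence whose mRNA was lower in shXBP-1s, as described below, 33.3% held the NRF1 motif, 25.0% the ETS motif, 8.3% the YY1 motif and 2.8% the TGACGTG motif. Among the 33 that were tested and not lower, the shares were 30.3%, 33.3%, 15.2% and 6.1%.

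To show these motifs in place, the 150 bases before the start are printed for a member of each complex. The choice was the largest fall in shXBP-1s among the members with a promoter sequence at hand. Their stretch also had to hold a motif and touch no other annotated gene. SDHC, which fell slightly more than SDHA, had no promoter sequence at hand. The sequences run 5′ to 3′ on the strand of the gene, with each motif match in capitals. They lie at chr3:120596186-120596335 (plus strand) for NDUFB4, chr5:218170-218319 (plus) for SDHA, chr19:1605463-1605612 (minus) for UQCR11, chr2:97645912-97646061 (plus) for COX5B and chr14:103921530-103921679 (minus) for ATP5MJ, all in GRCh38.p14.
NDUFB4: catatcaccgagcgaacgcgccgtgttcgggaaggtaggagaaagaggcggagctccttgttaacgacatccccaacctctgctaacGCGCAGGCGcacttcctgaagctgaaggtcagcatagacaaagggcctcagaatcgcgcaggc
SDHA: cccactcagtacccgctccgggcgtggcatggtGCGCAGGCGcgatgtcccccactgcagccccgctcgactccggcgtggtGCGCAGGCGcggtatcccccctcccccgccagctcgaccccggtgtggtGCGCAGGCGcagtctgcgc
UQCR11: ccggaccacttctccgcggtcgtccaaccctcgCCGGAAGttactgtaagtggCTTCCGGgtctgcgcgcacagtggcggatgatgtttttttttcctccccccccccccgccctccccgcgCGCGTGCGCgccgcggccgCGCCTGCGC
COX5B: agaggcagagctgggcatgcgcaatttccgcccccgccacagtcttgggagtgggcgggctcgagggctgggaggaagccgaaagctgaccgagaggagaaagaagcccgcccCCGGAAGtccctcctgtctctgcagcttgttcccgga
ATP5MJ: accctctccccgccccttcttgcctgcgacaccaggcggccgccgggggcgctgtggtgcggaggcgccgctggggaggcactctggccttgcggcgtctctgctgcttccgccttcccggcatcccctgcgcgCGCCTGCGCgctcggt
SDHA held 3 matches of the NRF1 motif in this stretch, UQCR11 held 2 of the NRF1 motif and 2 of the ETS motif, and the other three held 1 match each, of the ETS motif in COX5B and of the NRF1 motif in NDUFB4 and ATP5MJ.

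The knockdown was checked first. The XBP1 probe, which does not separate the spliced from the unspliced message in these data, read 1.88, 1.85 and 1.87 on the shCtrl arrays and -0.50, -0.54 and -0.52 on the shXBP-1s arrays. These values, like all levels below, are log2 signals relative to the 75th percentile of the array. The groups were far apart, with a difference of -2.39 (standard error 0.04) and an adjusted p of 2.81e-07 from limma with Benjamini-Hochberg adjustment over all tested probes. In an exact permutation test, 2-sided, p was 0.1, the smallest that 3 arrays against 3 allow.

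The arrays had 82.1% to 84.8% of their spots well above background and none saturated. The 75th percentile, by which each array was scaled, was higher on every shXBP-1s array (792.0 to 983.4) than on any shCtrl array (687.4 to 761.3). By the file headers, shCtrl 2 and 3 shared 1 scan time, and shCtrl 1 and the 3 shXBP-1s samples shared another. Arrays that shared a scan time are called a slide below, but no slide identifier was read. Of 8 squamous epithelial markers, all 8 were measured and 6 were higher in shXBP-1s, among them KRT5 (log2 change 1.43), KRT17 (1.53) and KRT14 (1.58). Their summed linear signal, in units of the 75th percentile, was 117 to 124 on the shCtrl arrays and 150 to 176 on the shXBP-1s arrays. The sums were 0.962 to 1.06 against 0.658 to 0.68 for 6 fibroblast markers, 4.61 to 6.48 against 3.4 to 3.63 for 5 leukocyte markers, 0.197 to 0.259 against 0.245 to 0.26 for 3 endothelial markers and 0.277 to 0.289 against 0.154 to 0.182 for 5 striated muscle markers. COL3A1, of the fibroblast list, and CKM, of the muscle list, were above background on no array. Of 5 tested fibroblast markers, 2 were lower and 2 were higher at an adjusted p below 0.05 from limma, with changes from -1.28 to 1.94. Of 5 leukocyte markers, 2 were lower and 1 was higher, with changes from -0.84 to 0.65. Over all tested genes 27.5% were lower and 18.9% were higher. CD14, the only bright leukocyte marker, was lower in shXBP-1s (-0.84), and LUM (1.94) and DCN (1.43), both dim, were the higher fibroblast markers. The part of these differences in the results below was not tested.

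Subunit mRNAs were lower in shXBP-1s more often than higher, by small amounts. With each gene read from its brightest probe, 39 of the 85 tested genes fell (45.9%), 2 rose and 44 did not pass an adjusted p of 0.05 from limma. In RNA from whole cultures, fewer cells of a kind and less RNA per cell cannot be told apart. In the same fit 27.5% of all 16821 tested genes were lower and 18.9% were higher. No member changed by as much as 2-fold, and over all tested genes 2.88% were lower and 2.30% were higher by that rule. The median log2 change of the members was -0.15, with 69 genes negative and 16 positive, against a median of -0.04 over all tested genes. The changes ran from -0.79 (COX6B2) to 0.61 (COX6A2).

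The members are among the brighter probes of the array, and 76 of the 85 were in the brightest 25.0% of the tested genes. Within that bright set 35.4% of genes were lower, 18.6% were higher and the median was -0.08, so the share of members that fell stands nearer to that of other bright genes than to that of all genes. Over all 105 tested probes of the members, 49 were lower (46.7%), 3 were higher (2.9%) and 53 did not pass. Of all 27624 tested probes, 11516 passed in either direction.

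The size of the fall depended on the scaling. The 75th percentile itself was 0.27 higher in shXBP-1s on the log2 scale. Before it was subtracted, the median difference of the 85 members was 0.12, with 66 genes higher and 19 lower in shXBP-1s, and those 19 were all among the 39 that fell after scaling. With normexp background correction only 6 members were lower (7.1%) against 11.5% of all genes, and the members' median of -0.04 then stood 0.25 above the median of all genes, which moved to -0.29. Under quantile normalization, cyclic loess or the deposited log2 values, between 31 and 33 members were lower and 5 or 6 were higher. Normexp followed by quantile normalization gave 31 members lower (36.5%) against 24.2% of all genes. The median of the members then stood 0.09 below that of all genes. Within the slide that held both groups, which sets the 3 shXBP-1s arrays against shCtrl 1 alone, 17 members were lower (20.0%) against 20.9% of all genes, and the median difference was -0.13 against -0.04 for all genes.

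The medians of the 85 genes on single arrays, each gene taken relative to its shCtrl mean, were -0.030, 0.032 and 0.001 for shCtrl 1 to 3 and -0.197, -0.160 and -0.101 for shXBP-1s 1 to 3. All 3 shXBP-1s arrays thus lay below all 3 shCtrl arrays. Among the controls, 62 of the 85 genes were lower on shCtrl 1 than the mean of shCtrl 2 and 3, with a median of -0.05 where all tested genes had 0.00. As shCtrl 1 was the only control on its slide, a difference of slides and one of single arrays cannot be told apart. Leaving out single arrays gave between 21 members lower (24.7%, without shXBP-1s 2) and 46 (54.1%, without shXBP-1s 3). The shares of all genes lower were then 21.8% and 26.0%. The count was 25 (29.4%) without shCtrl 2 and 25 (29.4%) without shCtrl 3, against 24.1% and 22.9% of all genes.

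**Figure D1:**
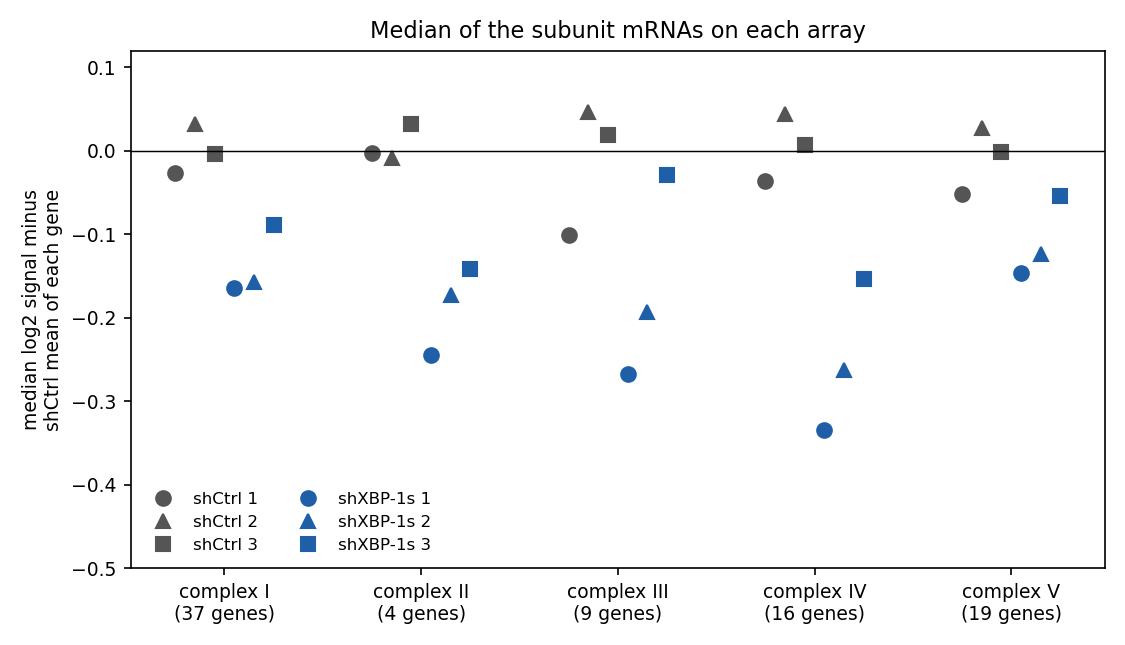
Median over the tested subunit genes of each complex (x axis) on each array, as log2 signal minus the shCtrl mean of each gene (y axis), with 1 point per array, grey for shCtrl and blue for shXBP-1s. Every shXBP-1s point lies below 0, and in complex III shXBP-1s 3 (-0.029) lies above shCtrl 1 (-0.101). In complex V shXBP-1s 3 (-0.054) and shCtrl 1 (-0.052) are nearly level.

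Complex I is the largest complex and had 37 tested genes, of which 16 fell, 1 rose and 20 did not pass (median -0.14). Its core subunits encoded in the nucleus carry the flavin and the iron-sulfur clusters or line the path to coenzyme Q. Among them, NDUFS3, NDUFS7, NDUFS8 and NDUFV2 fell by 0.16 to 0.29, and NDUFS1 (0.08) and NDUFV1 (0.10) did not pass. Of the 30 accessory subunits, 12 fell (median -0.13).

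Accessory subunits gave the largest falls of complex I. NDUFA2 is a small accessory subunit of the arm that faces the matrix. It read 2.30, 2.48 and 2.41 in shCtrl and 1.75, 1.81 and 1.92 in shXBP-1s, a difference of -0.57 (standard error 0.06, adjusted p = 2.37e-04 from limma). NDUFB10, of the membrane arm, read 3.09, 3.19 and 3.15 in shCtrl and 2.62, 2.61 and 2.69 in shXBP-1s, a difference of -0.50 (standard error 0.05, adjusted p = 1.05e-04 from limma). Both genes were lower in signal before scaling as well, with 3394.7 to 4258.5 against 2996.4 to 3299.2 for NDUFA2 and 5834.9 to 6937.2 against 5114.2 to 6031.5 for NDUFB10. Both passed under all 17 alternatives. NDUFA7 read 3.10, 3.10 and 3.16 in shCtrl and 2.63, 2.75 and 2.80 in shXBP-1s, a difference of -0.39 (adjusted p = 7.19e-04 from limma) that did not pass with normexp (-0.17). The probes of a gene did not always move together. NDUFC2, another membrane arm subunit, did not pass by its bright probe (-0.05) and fell by its dim probe, from between -0.94 and -0.80 in shCtrl to between -1.60 and -1.57 in shXBP-1s. NDUFA10 had a bright probe that did not pass (0.03) and a dimmer one that was higher (0.17, adjusted p = 0.0429 from limma).

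**Figure D2:**
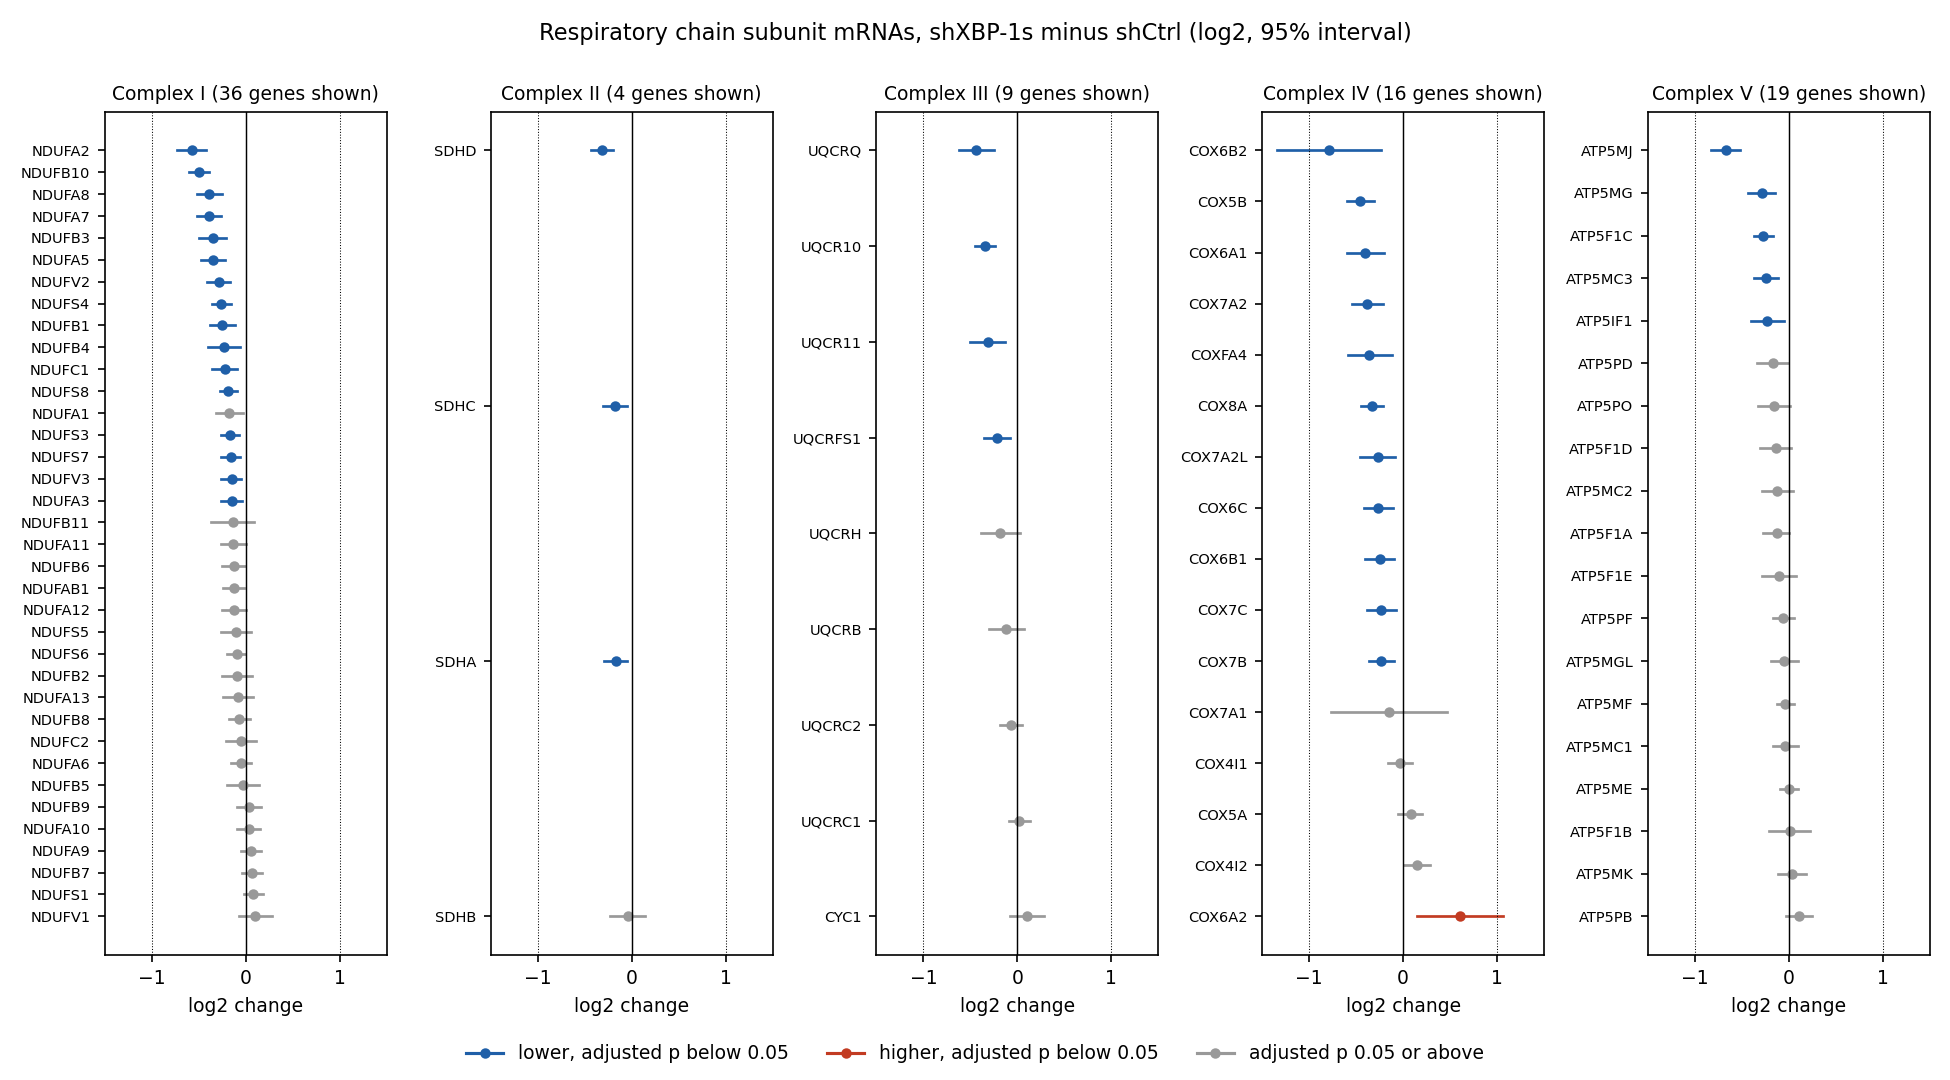
Log2 difference of shXBP-1s minus shCtrl (x axis) with its 95% interval from limma for 84 subunit genes, 1 panel per complex, blue for lower and red for higher at an adjusted p below 0.05 and grey for the rest, with dotted lines at 2-fold. No gene shown passes 2-fold, and the red point is COX6A2. The positions shift with the setting. COX6A2 was negative under normexp (-0.24) and 0.11 with the slide as a block.

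Complex II, succinate dehydrogenase, links the tricarboxylic acid cycle to the chain. Of its 4 subunits 3 fell and 1 did not pass (median -0.18). SDHA, which holds the flavin and oxidises succinate, read 3.24, 3.34 and 3.36 in shCtrl and 3.09, 3.16 and 3.18 in shXBP-1s, a difference of -0.17 (adjusted p = 0.0299 from limma). The other three SDHA probes differed by -0.15, -0.02 and -0.09, and none of them passed. SDHB, which holds the iron-sulfur clusters, read 2.56, 2.30 and 2.51 in shCtrl and 2.50, 2.43 and 2.31 in shXBP-1s. The SDHB groups overlapped (difference -0.04, 95% interval -0.23 to 0.14), and the sign of the difference turned under 6 of the 17 alternatives.

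SDHC and SDHD form the membrane anchor that binds coenzyme Q and heme. SDHC read 3.76, 3.79 and 3.80 in shCtrl and 3.52, 3.60 and 3.71 in shXBP-1s, a difference of -0.18 (adjusted p = 0.0369 from limma). SDHD read 2.13, 2.09 and 2.12 in shCtrl and 1.72, 1.86 and 1.81 in shXBP-1s, a difference of -0.32 (standard error 0.05, adjusted p = 0.00145 from limma). All 3 SDHD probes fell, the others by 0.24 and 0.29, whereas the dimmer SDHC probes (-0.13 and -0.09) did not pass. The calls of SDHA and SDHC were lost under 11 and 10 of the 17 alternatives, for both genes also without any 1 of shCtrl 2, shCtrl 3, shXBP-1s 1 or shXBP-1s 2, and that of SDHD under 2, both of which used normexp.

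In complex III, 4 of the 9 tested genes fell, none rose and 5 did not pass (median -0.18, and -0.09 without shXBP-1s 1 or with the slide as a block). UQCRFS1, the Rieske iron-sulfur protein, and CYC1, cytochrome c1, carry electrons alongside the mitochondrially encoded cytochrome b. UQCRFS1 read 3.16, 3.31 and 3.32 in shCtrl and averaged 3.04 ± 0.06 (SD, n = 3) in shXBP-1s, with no overlap, a difference of -0.22 (adjusted p = 0.0182 from limma). Its call was lost under 8 of the 17 alternatives, with normexp (0.01), with normexp and quantile normalization, with the slide as a block, with the unmoderated test of the methods and without any 1 of shCtrl 2, shCtrl 3, shXBP-1s 1 or shXBP-1s 2. CYC1 (0.10) did not pass, nor did the large core proteins UQCRC1 (0.02) and UQCRC2 (-0.07).

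The 3 largest falls of complex III were in small accessory subunits. UQCRQ read 4.20, 4.46 and 4.39 in shCtrl and 3.81, 3.92 and 4.01 in shXBP-1s, a difference of -0.44 (standard error 0.08, adjusted p = 0.00319 from limma). UQCR10 read 4.01, 4.03 and 4.03 in shCtrl and 3.66, 3.65 and 3.73 in shXBP-1s, a difference of -0.34 (standard error 0.04, adjusted p = 5.24e-04 from limma). Its other two probes fell as well, by 0.27 and 0.82. UQCR11 read 3.78, 4.00 and 3.96 in shCtrl and 3.48, 3.61 and 3.71 in shXBP-1s, a difference of -0.31 (adjusted p = 0.0142 from limma). UQCRQ and UQCR10 lost the call only with normexp, and UQCR11 also with the slide as a block, with the unmoderated test of the methods and without shCtrl 2 or 3. UQCRH did not pass by its brighter probe (-0.18) and fell by the other (-0.30). UQCRHL is a near-identical copy of UQCRH, so signal of the pair is uncertain.

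Complex IV, cytochrome c oxidase, had the lowest median, -0.26, with 11 of its 16 tested genes lower, 1 higher and 4 that did not pass. Its median was -0.16 with normexp. COX5B, an accessory subunit that binds zinc on the matrix side, read 2.91, 3.03 and 3.01 in shCtrl and 2.43, 2.52 and 2.62 in shXBP-1s. The groups did not overlap, and the difference of -0.46 (standard error 0.06, adjusted p = 6.52e-04 from limma) passed under all 17 alternatives. COX5A, its neighbour in the enzyme, did not pass (0.08).

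Several subunits of complex IV have a common form and a form restricted to heart and skeletal muscle, lung or testis. Among the common forms, COX6A1 read 5.28, 5.53 and 5.62 in shCtrl and 5.02, 5.07 and 5.13 in shXBP-1s, a difference of -0.40 (adjusted p = 0.00747 from limma). COX7A2 fell by 0.38 (adjusted p = 0.00339), COX8A by 0.33 (adjusted p = 0.00165), COX6B1 by 0.25 (adjusted p = 0.0140) and COX7B by 0.23 (adjusted p = 0.0134, all from limma). COXFA4, the former NDUFA4, read 4.65, 4.79 and 4.71 in shCtrl and 4.16, 4.34 and 4.58 in shXBP-1s, a difference of -0.36 (adjusted p = 0.0232 from limma). COX4I1 was the exception among the common forms, at 2.94, 3.10 and 3.10 in shCtrl and 2.98, 3.03 and 3.04 in shXBP-1s (difference -0.03, 95% interval -0.16 to 0.10), with a sign that turned under 6 of the 17 alternatives. COX6A1 and COXFA4 lost the call with the slide as a block and with the unmoderated test of the methods, as did COX6B1 and COX7B. Normexp followed by quantile normalization ended the calls of COX6A1 and COX7B as well. The call of COXFA4 was also lost without any 1 of shCtrl 2, shCtrl 3, shXBP-1s 1 or shXBP-1s 2, and those of COX6B1 and COX7B without shXBP-1s 2. Of these 6 common forms that fell, each lost the call with normexp.

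The restricted forms were measured less well. COX7B2 and COX8C, testis forms, and COXFA4L2, a form known for its rise in hypoxia, were not well above background on any array. COX6A2, the muscle form of COX6A, was dim but above background, at -3.26, -4.11 and -3.90 in shCtrl and -3.11, -3.15 and -3.18 in shXBP-1s. Its difference of 0.61 (standard error 0.20, adjusted p = 0.0386 from limma) rested on wide control values. Of these, shCtrl 1 lay closest to the shXBP-1s arrays. With the slide as a block, which compares shCtrl 1 alone, the difference was 0.11, and with normexp it was -0.24. The call was lost or reversed under 10 of the 17 alternatives. They included leaving out any 1 of shCtrl 2, shCtrl 3 or the 3 shXBP-1s arrays. COX6B2, the testis form of COX6B, read -0.15, -0.10 and -0.11 in shCtrl and -1.48, -0.89 and -0.35 in shXBP-1s. The shXBP-1s arrays lay below the controls with a spread of 0.56 (SD, n = 3), and the difference of -0.79 (standard error 0.24, adjusted p = 0.0300 from limma) was lost under 7 of the 17 alternatives, among them without shXBP-1s 2 and without shCtrl 2 or 3. Its dimmer probe fell by 0.33. COX4I2, the lung form of COX4, did not pass (0.15, adjusted p = 0.0747) but passed as higher under all 4 alternatives that used quantile or loess normalization or the deposited values. COX7A1, the muscle form of COX7A, was dim and did not pass (-0.15, 95% interval -0.77 to 0.47).

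**Figure D3:**
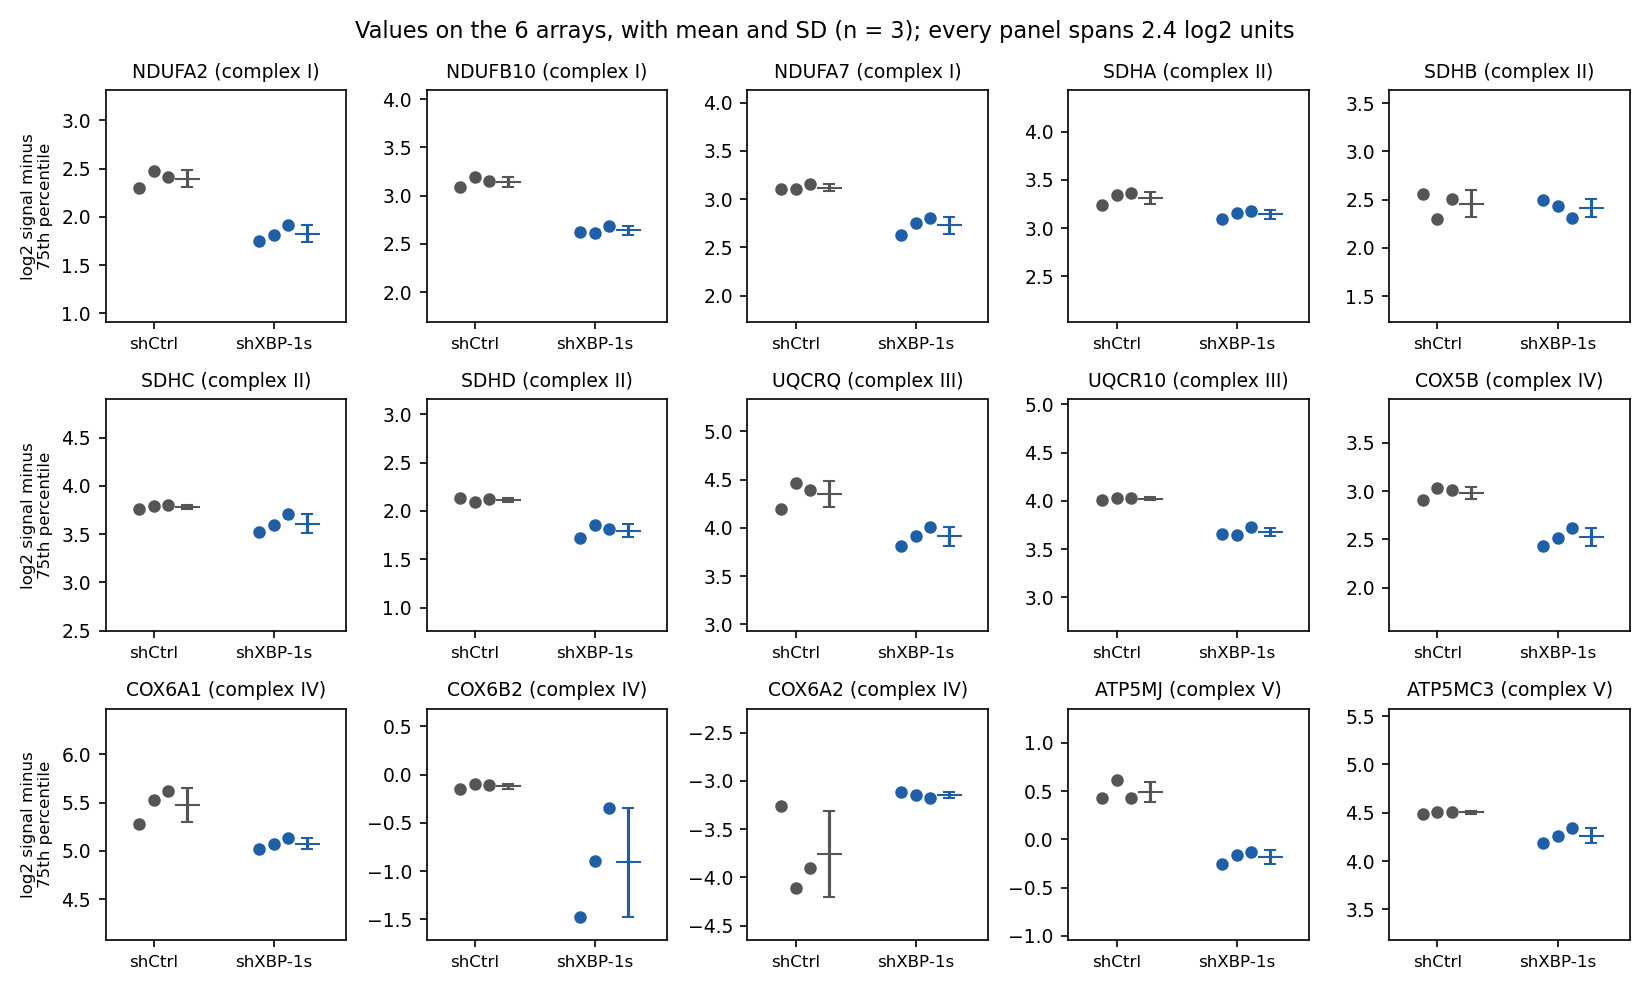
Log2 signal minus the 75th percentile of the array (y axis) for 15 subunit genes on the 3 shCtrl (grey) and 3 shXBP-1s (blue) arrays, with the mean and SD beside the points. Every panel spans 2.4 log2 units around the middle of the groups, so slopes can be compared but levels of different probes cannot. COX6B2 and COX6A2 have the widest spread, and SDHB is the only gene shown whose groups overlap. Under normexp COX6A2 was negative (-0.24) and SDHB positive (0.21).

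Complex V changed least often, with 5 of 19 genes lower, none higher and 14 that did not pass (median -0.13, and -0.08 without shCtrl 2 or with the slide as a block). Its share of 26.3% is near that of all tested genes. Of the 5 subunits of the catalytic F1 head and its stalk, ATP5F1C, the rotating gamma subunit, fell, and the alpha and beta subunits ATP5F1A (-0.13) and ATP5F1B (0.01) did not pass. ATP5F1C read 1.02, 1.06 and 0.97 in shCtrl and 0.77, 0.73 and 0.74 in shXBP-1s, a difference of -0.27 (standard error 0.04, adjusted p = 0.00178 from limma). Its call was lost only with normexp (-0.19). None of the 4 subunits of the peripheral stalk passed (-0.17 to 0.11).

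Of the 3 genes for the proton-carrying c-ring, which encode the same mature protein, ATP5MC3 fell and ATP5MC1 (-0.04) and ATP5MC2 (-0.13) did not pass. ATP5MC3 read 4.49, 4.51 and 4.51 in shCtrl and 4.19, 4.26 and 4.34 in shXBP-1s, a difference of -0.24 (adjusted p = 0.00760 from limma). That call was lost with normexp, with normexp followed by quantile normalization and with the slide as a block. ATP5IF1, the inhibitor that binds the F1 head when the enzyme runs backwards, fell by 0.23 (adjusted p = 0.0448) and by 0.25 with its second probe (adjusted p = 0.0292, both from limma).

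The clearest change of complex V was in ATP5MJ, a small subunit of the membrane part of the enzyme. It read 0.43, 0.61 and 0.43 in shCtrl and -0.26, -0.16 and -0.13 in shXBP-1s. The difference of -0.67 (standard error 0.07, adjusted p = 1.05e-04 from limma) passed under all 17 alternatives, where it ran from -0.71 to -0.59. ATP5MG, a subunit at the dimer interface, read 4.74, 4.81 and 4.84 in shCtrl and 4.42, 4.50 and 4.59 in shXBP-1s, a difference of -0.29 (adjusted p = 0.00535 from limma), lost with normexp and with the slide as a block. ATP5MGL, a close copy of ATP5MG, did not pass (-0.05). Signal between close copies, and between the genes and their pseudogenes, may be shared, and the files hold no probe sequences with which to check it.

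The related gene lists are read against the 27.5% of all tested genes that were lower and the 18.9% that were higher, and no difference from these shares was tested. Of 18 complex I assembly factors, 6 were lower and 4 were higher (33.3% and 22.2%, median -0.02), near both shares, among them NDUFAF4 (0.36), DMAC1 (-0.85) and COA1 (-0.29). Of 4 complex II factors only SDHAF3 changed (-0.25). Of 6 complex III factors 3 were lower and 1 was higher, with UQCC2 at -0.43, LYRM7 at -0.25 and BCS1L at 0.26. Of 22 complex IV factors 10 were lower and 5 were higher (median -0.11). They included CMC1 (-0.62), which binds newly made COX1, COA7 (0.50) and COA5 (-0.40). Of 3 tested complex V factors, TMEM242 (-0.31) and FMC1 (-0.32) were lower. Of 17 genes for mobile carriers and coenzyme Q synthesis, 6 were lower and 2 were higher (median -0.03). The enzymes COQ7 (-0.94), PDSS2 (-0.65) and COQ5 (-0.42) of coenzyme Q synthesis were the clearest.

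Of 15 tested regulators of mitochondrial biogenesis and mitochondrial DNA expression, 7 were higher and 3 were lower (median 0.14). PPRC1, a coactivator of the PGC-1 family, rose by 0.65 and GABPB1, the partner of the ETS factor GABPA, rose by 0.45. TFAM, which packages and transcribes mitochondrial DNA, fell by 0.39. Of 17 genes of pyruvate dehydrogenase and the tricarboxylic acid cycle, 7 were lower and 3 were higher (median -0.16). The 3 clearest were PDHB (-0.66), PDHX (-0.67) and DLD (-0.61). None of the 13 protein-coding genes of mitochondrial DNA had a probe matched to a symbol, so the other side of the chain was not analysed here.

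Ribosomal protein genes gave bright probes, as did many of the subunits. Of 77 mitochondrial ribosomal protein genes 23 were lower and 4 were higher (29.9% and 5.2%, median -0.06). MRPL16 (-1.56), MRPL42 (-0.93) and MRPL54 (-0.47) were the clearest. Of 88 genes drawn as cytosolic ribosomal by their RPL or RPS symbol, 13 were lower and 4 were higher (14.8% and 4.5%). One of the 13 is RPS19BP1 (-0.24), which encodes a binding protein of RPS19 and not a ribosomal protein, and without it 12 of 87 were lower (13.8%) and 4 were higher. Their median of -0.12 stood close to the -0.15 of the respiratory chain genes. RPL22 (-0.53) was lower and RPL27A (0.30) was higher. The difference between these lists and the subunits was not tested.

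**Figure D4:**
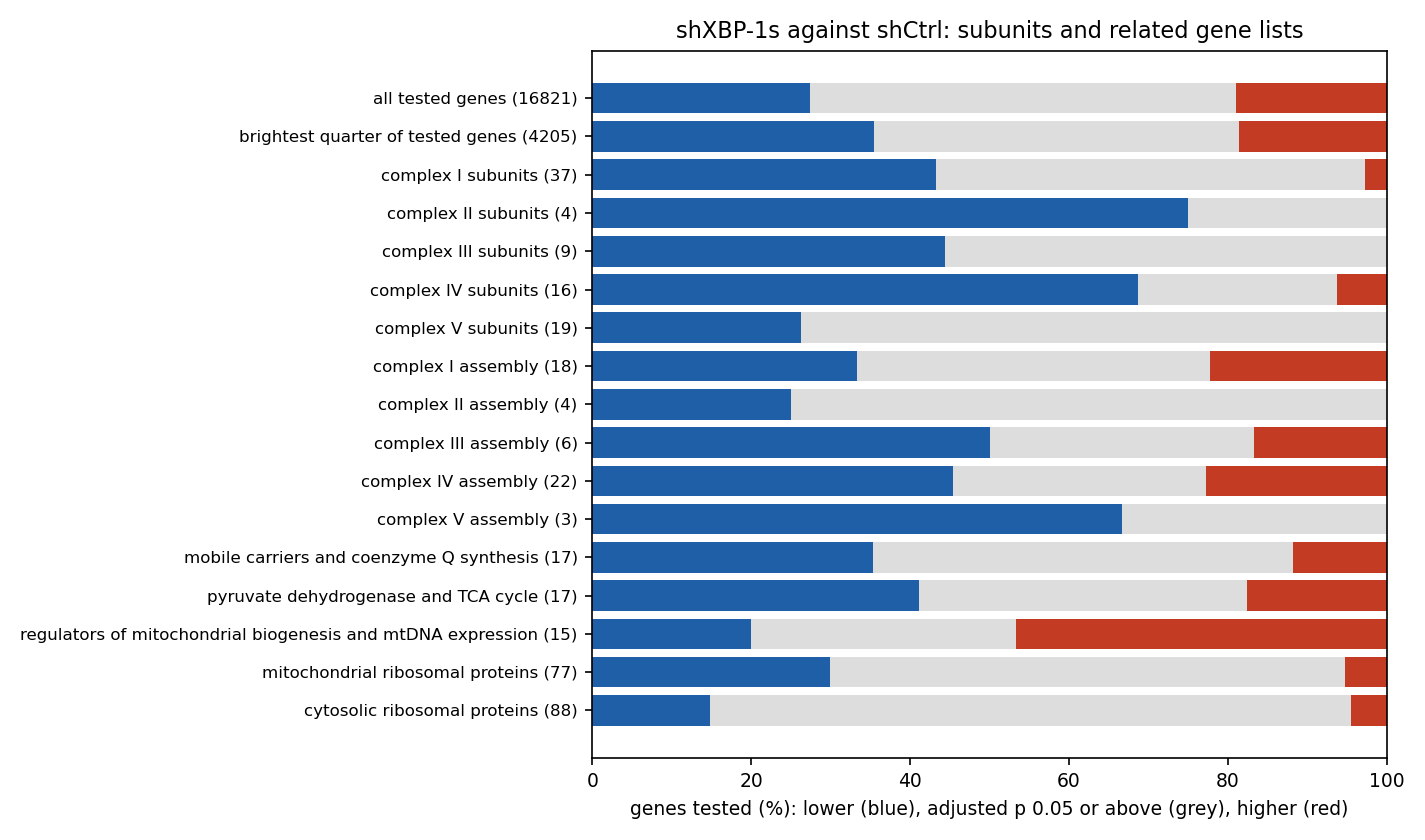
Share of tested genes (x axis, percent) that were lower (blue), higher (red) or did not pass an adjusted p of 0.05 from limma (grey) in shXBP-1s, for the subunits of each complex and for related gene lists, with the number tested in parentheses. The cytosolic ribosomal list includes RPS19BP1. Complex IV has 11 of 16 genes lower and complex V 5 of 19, beside 27.5% of all tested genes. With normexp, 6 members in all were lower (7.1%, against 11.5% of all genes). With normexp followed by quantile normalization 31 were (36.5%, against 24.2%).

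**Figure D5:**
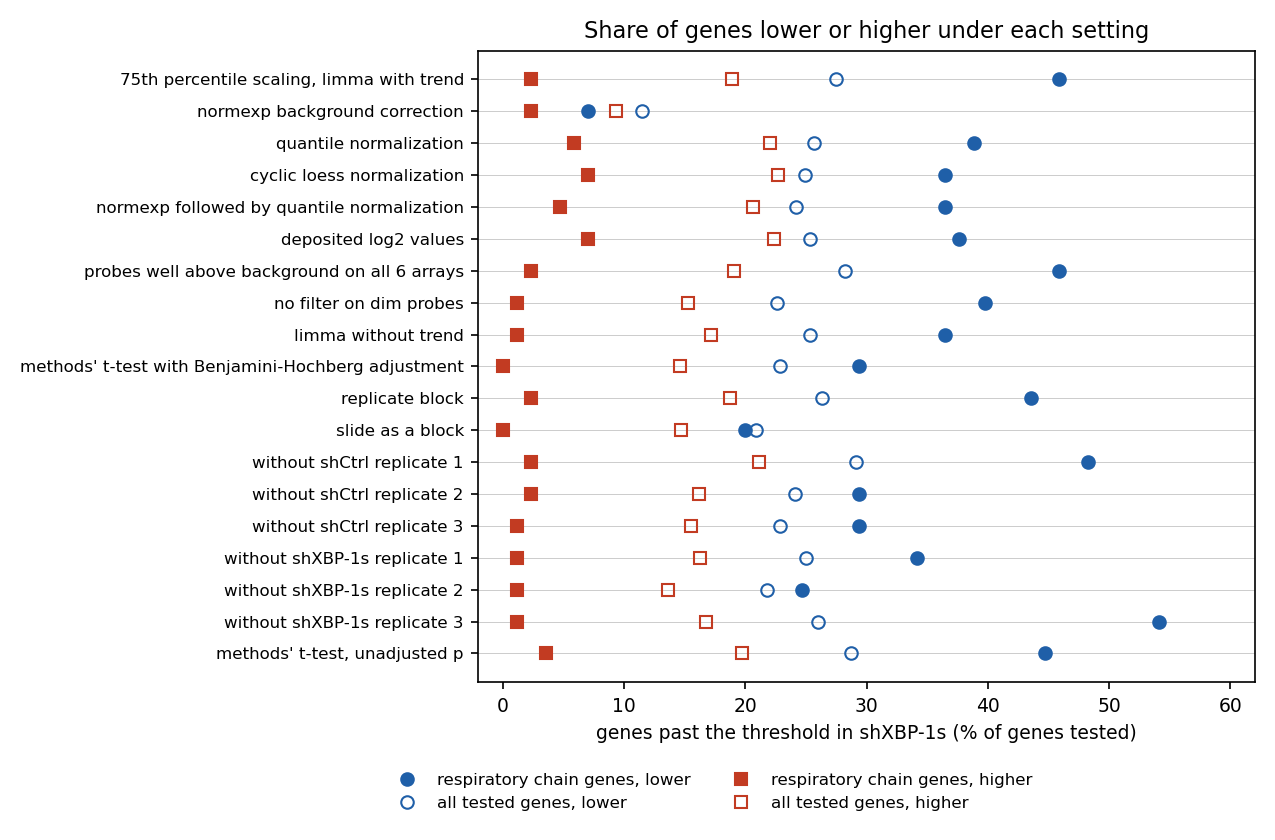
Share of genes past the threshold in shXBP-1s (x axis, percent of genes tested) under the main setting and each alternative (y axis), filled for the respiratory chain genes and open for all tested genes, circles for lower and squares for higher. The filled circle lies right of the open one except with normexp (7.1% against 11.5%) and with the slide as a block (20.0% against 20.9%).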

How the data were processed

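The authors deposited scanner output of 6 arrays from Agilent Feature Extraction 11.0.1.1. Its processed signal is a background-subtracted intensity per spot that was not normalized between arrays. The labels describe a NimbleGen labelling procedure, whereas the paper and the scanner output give an Agilent design. A further deposited table held log2 values per probe, with a median of 6.28 on each array and a lowest value of 2.32. How it was made is not given in the sources used here beyond the name RMA in the submitters' processing notes, and it served as an alternative only. It correlated with the log2 signal of its own array at 0.990 to 0.992.

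Spots flagged as outliers were left out (230 to 377 per array), the 75th percentile of the array over non-control spots was subtracted from the log2 signal, and replicate spots were averaged per probe. Of 34127 probes, 19 had no unflagged spot on some array. The probes well above background (on more than 50% of their spots) on every array of at least 1 group, 27624 in all, entered the test with limma 3.58.1 in R 4.3.3 (lmFit and eBayes with trend, 2-sided, Benjamini-Hochberg over all tested probes). Without a minimum fold, 11516 probes passed an adjusted p of 0.05. Accessions were matched to RefSeq GRCh38.p14 for 25771 probes. The array annotation names another build, so coordinates are given only for the RefSeq promoters. Each of the 16821 tested genes was read from its brightest tested probe. Because probes differ in response, levels of different genes were not compared.

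The members and gene lists were chosen with earlier results of these data known. Named genes were XBP1, in each complex the 4 genes with the largest change among those that passed, the 4 SDH genes, the tissue-restricted isoforms of complex IV beside their common forms, and up to 3 genes with the smallest p of each list. Other genes were named after their values were seen. Genes that the rule names but the text does not are not reported here. The alternatives were normexp (offset 50, on the median spot signal), quantile and cyclic loess normalization, the deposited values, other filters, limma without trend, the methods' t-test, replicate and slide blocks, the mean over probes, a 2-fold minimum and leaving out each array. The t-test without adjustment was added after the data were seen. The 17 alternatives counted for single genes include normexp followed by quantile normalization. They leave out the mean over probes, the 2-fold minimum and the t-test without adjustment. Replicate numbers did not pair the samples, since the deviations of arrays with equal numbers correlated at -0.02, 0.12 and -0.12. In simulated data for this comparison, over 27624 probes with 200 changed probes (50 of each size), far fewer than changed here, limma recovered 1 of 50 at a log2 change of 0.25, 16 at 0.5, 35 at 1 and 47 at 2, with 2 false calls. The precision is limited by 3 arrays per group.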

Additional observations from a re-analysis of the deposited data

How the results depend on the processing

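The median log2 change of the members stayed negative under every alternative, and at least 38 of the 39 genes that were lower kept their sign under each. The 39 genes were picked on these same arrays, so their kept sign is no separate evidence. Signals before scaling were not among the alternatives. There the median of the members was 0.12, and 19 of the 39 genes were lower. With normexp, 4507 of the tested probes passed and 6 members were lower, and the medians were -0.04 for all members and -0.02, -0.06, -0.03, -0.16 and -0.01 for complexes I to V. Relative to all genes, whose median moved to -0.29, the members then stood higher, so the direction against other genes turned. With quantile normalization 5 members were higher and the medians were -0.10 for all members and -0.08, -0.13, -0.10 and -0.07 for complexes I, II, III and V. With cyclic loess 6 were higher and these medians were -0.09, -0.07, -0.10, -0.09 and -0.05. With normexp followed by quantile normalization 31 were lower and 4 were higher. The medians were then -0.10 for all members and -0.09, -0.08, -0.17 and -0.07 for complexes I, III, IV and V. With the deposited values 6 were higher and the medians were -0.09 for all members and -0.08, -0.12, -0.08 and -0.06 for complexes I, II, III and V. Without a filter on dim probes, and in limma without trend, 1 member was higher (1.1% and 1.2%, against 15.3% and 17.2% of all genes). By the methods' t-test with adjustment 25 were lower (29.4%, all genes 22.9%) and 0 were higher (all genes 14.6%). At an unadjusted p below 0.05 of that t-test, 38 were lower (44.7%, all genes 28.7%) and 3 were higher (3.5%, all genes 19.7%). With a 2-fold minimum 0 were lower and 0 were higher in limma. With the slide as a block, which leaves shCtrl 1 as the only control compared, 17 were lower, 0 were higher and the medians of complexes III and V were -0.09 and -0.08. With all probes of a gene averaged the median of complex II was -0.12. The replicate block gave 37 members lower (43.5%, all genes 26.3%) and 2 higher (2.4%, all genes 18.7%) and changed none of these calls by over 1.5 times.

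Leaving out single arrays gave 21 to 46 members lower (24.7% to 54.1%, against 21.8% to 29.1% of all genes). It gave 1 to 2 higher (1.2% to 2.4%, against 13.6% to 21.1%). The medians were -0.21 to -0.14 for complex II, -0.25 to -0.09 for complex III (-0.09 without shXBP-1s 1) and -0.14 to -0.08 for complex V (-0.08 without shCtrl 2). Signs turned for UQCRFS1 (0.01) and COX6A2 (-0.24) with normexp. SDHB, near 0, was 0.21 with normexp, 0.02 with cyclic loess, 0.14 with normexp and quantile normalization, 0.000 in the deposited values and 0.007 without shCtrl 1 or without shXBP-1s 3. COX4I1 was 0.13 with normexp, 0.03 with quantile normalization, 0.04 with cyclic loess, with normexp and quantile normalization and in the deposited values, and 0.08 under the slide block. COX7A1 was 0.29 under the slide block, 0.05 without shCtrl 2 and 0.08 without shXBP-1s 3, with -0.37 to 0.08 over all arrays left out. The cause of these shifts was not tested. Probes near background, such as those of COX7A1 and COX6A2, limit what can be said of dim isoforms.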
